A study of Rattus norvegicus with 31 samples.

Results

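The neurotrophins and their receptors were followed in motor neurons of the rat tail before and after transection of the sacral spinal cord. The members were 5 genes: the ligands Bdnf and Ntf3 and the receptors Ngfr, Ntrk2 and Ntrk3. Their probe sets were those whose single gene symbol in the platform annotation is a listed gene, which gave 5 of the 12913 probe sets tested and 4 of the 5 genes. They are 1368148_at for Ngfr, 1368972_at and 1370687_a_at for Ntrk2 (called the first and the second here), 1368939_a_at for Ntrk3 and 1387267_at for Ntf3. Bdnf has no such probe set and was not analysed here. In the GRCr8 annotation Ngfr lies on chromosome 10 (81012077 to 81030305), Ntrk2 on chromosome 17 (5560558 to 5875899), Ntrk3 on chromosome 1 (141526192 to 141913575) and Ntf3 on chromosome 4 (160601161 to 160670623).

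The arrays measured amplified RNA from Fluoro-Gold labelled motor neurons that were laser microdissected from the sacral cord of adult male Wistar rats, with 1 rat per array. The 31 arrays fall into 5 groups. Control (n = 4) was uninjured, and Spi-2 (n = 6), Spi-7 (n = 5), Spi-21 (n = 8) and Spi-60 (n = 8) were taken 2, 7, 21 and 60 days after a complete transection at S2 with removal of a short piece of cord. The motor neurons were dissected from segments caudal to the level of that transection. All groups had received the tracer, which reaches the cell bodies from the tail muscles and, after intraperitoneal injection, from other axon endings outside the central nervous system. The Spi-21 and Spi-60 arrays were made for an earlier study and the others for the present one, so that a difference between the studies cannot be told apart from a difference between these late times and Control, Spi-2 or Spi-7. The same 4 control arrays serve in the comparisons at all 4 times.

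Neurotrophins are small secreted proteins that support the survival, growth and synaptic function of neurons. They act through receptor tyrosine kinases, TrkB (the product of Ntrk2) for BDNF and NT-4 and TrkC (Ntrk3) for NT-3 (Ntf3), and through the p75 neurotrophin receptor (Ngfr), which binds all of them and their uncleaved precursors. Motor neurons are known to make Ngfr during development, to lose most of it in the adult and to make it again after injury of their axons in the peripheral nerve, and adult motor neurons carry TrkB and TrkC. The transection studied here cut the spinal cord rostral to the sampled cells and not a peripheral nerve.

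Markers of motor neurons were read in every group. Of 11 listed motor neuron genes 8 were measured (Slc18a3, Slc5a7, Prph, Calca, Isl1, Nefl, Nefm and Nefh, with Chat, Ache and Mnx1 not among them), and their summed level lay between 15.43 and 16.05 on the log2 scale in all 31 arrays. The sum mostly follows the neurofilament genes Nefh, Nefl and Nefm, with mean levels of 14.14, 13.77 and 13.24. Slc18a3 (7.32) and Isl1 (5.70) add little to it, so its narrow range does not speak for them. Single genes of the list moved against Control: Slc5a7, the choline transporter, fell on days 2, 21 and 60 (log2 changes of -1.18, -1.11 and -1.06, adjusted p = 0.0128, 0.0095 and 0.0112 by limma, with -1.04 and 0.0729 on day 7), and Prph, the intermediate filament peripherin, rose by 0.59 to 0.79 at all 4 times (adjusted p = 0.00291 to 0.0484). Markers of other cells were present as well. The summed level of 9 microglial genes of 10 listed was 8.79 to 9.05 in Control. It was 9.75 to 10.92 for Spi-2, 9.23 to 10.58 for Spi-7, 8.74 to 11 for Spi-21 and 9.13 to 11.06 for Spi-60, and 4, 1, 2 and 3 of the 9 genes were called higher than Control on days 2, 7, 21 and 60. Of all probe sets 3.9%, 0.914%, 5.94% and 7.2% were called higher at these times. Of 9 Schwann cell genes 6 were measured, none was called at any of the 4 times by limma (1 had an unadjusted p under 0.05), and their summed level overlapped between Control (11.8 to 12.5) and every other group. The length of the amplified RNA was read from the Gapdh control sets, where a larger excess of the 3′ over the 5′ set stands for shorter copies. This log2 difference was 1.80 to 2.50 in Control, 2.30 to 3.38 in Spi-2, 2.38 to 3.33 in Spi-7 and 2.99 to 3.97 in Spi-60. In Spi-21 it was 2.76 to 3.54 in replicates 1 to 4 and 1.13 to 1.66 in replicates 5 to 8. In Spi-2 replicate 4 the summed level of 8 fibroblast and meningeal genes was 13.5, against 9.68 at most in Control.

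Ngfr was higher than in Control at all 4 times after transection, by 3.67-fold to 7.72-fold. It was the one member of the 5 probe sets that was called against Control at any time. The levels of the Trk receptors and Ntf3 were 0.731-fold to 1.32-fold those of Control with no call, and Ntf3 stood higher on days 21 and 60 than on days 2 and 7. A call here means an adjusted p under 0.05 in limma (Benjamini-Hochberg over all 12913 probe sets, two-sided), and over the 5 groups an FDR under 0.02 in its F-test. Over the 5 groups Ngfr (adjusted p = 0.00527) and Ntf3 (adjusted p = 0.00333) were called, 2 of 5 member probe sets, where 16.2% of all probe sets were called. The call of Ngfr was lost without Control replicate 1 (adjusted p = 0.022) and with the Gapdh measure as a covariate (adjusted p = 0.0536, limma). In a bulk sample, fewer cells of a type and less RNA per cell cannot be told apart.

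**Figure D1:**
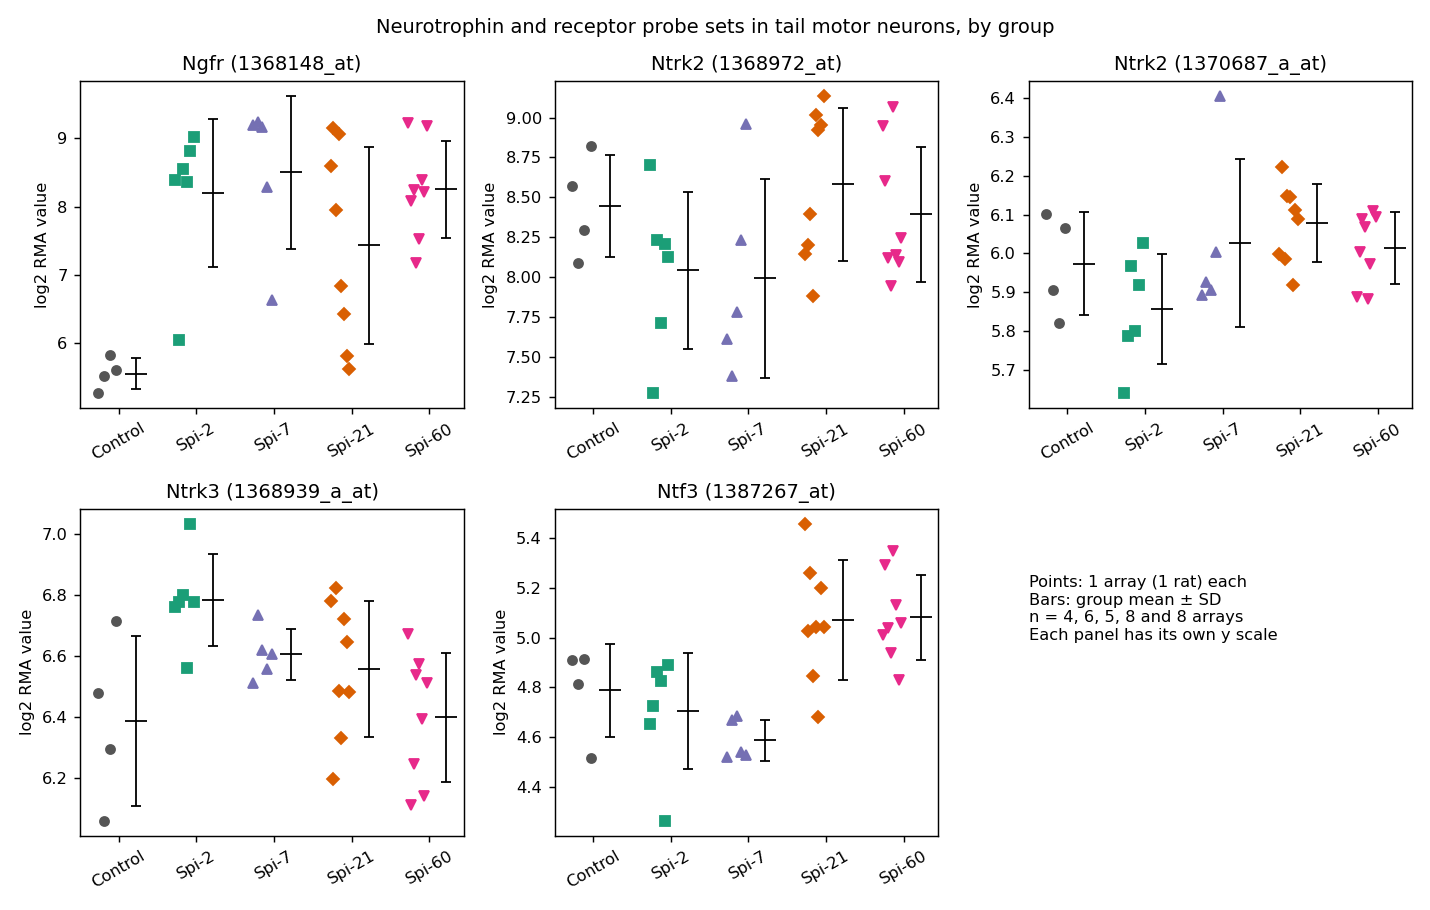
Log2 RMA value (y axis, a scale of its own in each panel) of the 5 member probe sets in each of the 31 arrays (points), by group (x axis), with the group mean and SD beside the points. Ngfr lies between 5.27 and 5.82 in the 4 control arrays and above 5.82 in all arrays of Spi-2, Spi-7 and Spi-60, while Spi-21 spreads from 5.62 to 9.16.

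Ngfr encodes the p75 neurotrophin receptor, a transmembrane protein of the tumour necrosis factor receptor family that works alone or together with Trk receptors, sortilin or the Nogo receptor. Its log2 values in Control were 5.27, 5.52, 5.82 and 5.61, a mean of 5.56 ± 0.23 (SD, n = 4). In Spi-2 they were 8.38, 6.05, 8.54, 8.36, 8.82 and 9.03 (mean 8.20 ± 1.08, SD, n = 6), and in Spi-7 9.19, 9.24, 9.17, 8.29 and 6.63 (8.50 ± 1.12, SD, n = 5). All arrays of both groups lay above the highest control, and in each of them 1 array, Spi-2 replicate 2 and Spi-7 replicate 5, stood well below the rest. In Spi-60 the values ran from 7.18 over a median of 8.22 to 9.23 (8.26 ± 0.71, SD, n = 8), again with no overlap with Control.

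Spi-21 was divided. Its log2 values of Ngfr were 8.59, 9.16, 7.95 and 9.06 in replicates 1 to 4 and 6.84, 6.43, 5.81 and 5.62 in replicates 5 to 8, which gave a mean of 7.43 with an SD of 1.44 (n = 8). Replicates 1 to 4 lay as high as the other injured groups, while replicates 7 and 8 lay within the range of Control. The same replicates differed in the Gapdh measure, as given above, and in the microglial sum, which was 9.49 to 11 in replicates 1 to 4 and 8.74 to 9.27 in replicates 5 to 8. The Gapdh measure was entered into a further fit as a covariate, and the part of the microglial genes in the Ngfr values was not tested.

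Against Control the log2 fold change of Ngfr was 2.64 ± 0.63 (SE) on day 2, a 6.24-fold difference (95% confidence interval on the log2 scale 1.36 to 3.92, adjusted p = 0.00714 by limma). On day 7 it was 2.95 ± 0.65 (7.72-fold, interval 1.62 to 4.28, adjusted p = 0.00989), and on day 60 it was 2.70 ± 0.60 (6.50-fold, interval 1.48 to 3.92, adjusted p = 0.00245). These were among the highest changes on the array: the log2 fold change ranked 4 on day 2, 2 on day 7 and 1 on day 60 among 12913 probe sets. On day 21 it was 1.88 ± 0.60 (3.67-fold, interval 0.66 to 3.09, adjusted p = 0.0292 by limma), with 6 of 8 arrays above the highest control. Of all probe sets 8.87% were called on day 2, 2.59% on day 7, 16.6% on day 21 and 17.1% on day 60, with 3.9%, 0.914%, 5.94% and 7.2% higher and 4.98%, 1.67%, 10.7% and 9.89% lower. No overlap between the arrays of the 2 groups was found for 9.39% of probe sets on day 2, 9.23% on day 7, 7.33% on day 21 and 12.8% on day 60.

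The call on day 21 was the least firm of the 4. Without Control replicate 1, 2, 3 or 4 its adjusted p in limma was 0.0764, 0.073, 0.0562 or 0.0564, and without Spi-21 replicate 1, 2 or 4 it was 0.0552, 0.0595 or 0.0509. Without Spi-21 replicates 1 to 3 together the log2 fold change was 1.20 (adjusted p = 0.242), and in a fit of the 2 groups alone the adjusted p was 0.0594. The calls on days 2, 7 and 60 remained when any 1 of the 31 arrays was left out.

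Since the Gapdh measure also differed between Control and the injured groups, the fit was repeated with it as a covariate. The log2 fold change of Ngfr was then 1.84 ± 0.59 (SE) on day 2 (adjusted p = 0.0569), 1.96 ± 0.63 on day 7 (adjusted p = 0.118), 1.61 ± 0.52 on day 21 (adjusted p = 0.0341) and 1.23 ± 0.66 on day 60 (adjusted p = 0.334), all by limma. The direction was kept at all 4 times and the calls on days 2, 7 and 60 were lost.

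**Figure D2:**
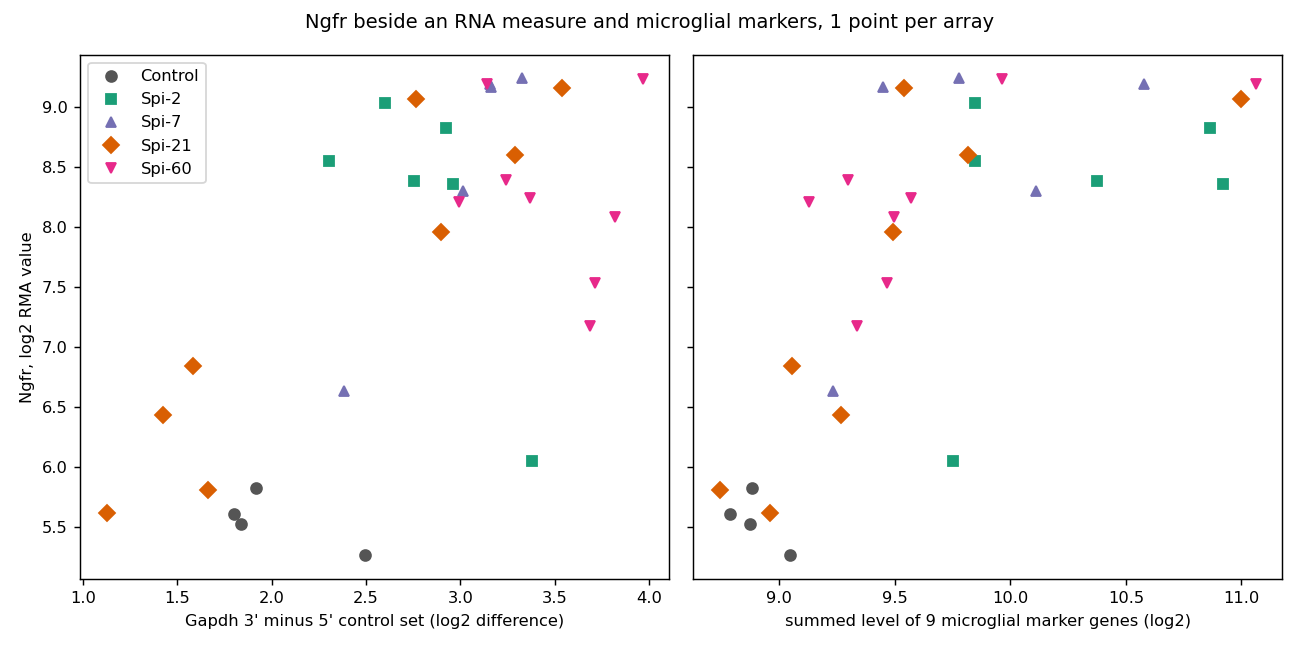
Log2 value of Ngfr (y axis) in each of the 31 arrays against the Gapdh 3′ minus 5′ difference (left, log2) and the summed level of 9 microglial markers (right, log2), with a symbol for each group. Control lies at 1.80 to 2.50 on the left axis with Ngfr at 5.27 to 5.82 and Spi-21 replicates 5 to 8 lie at 1.13 to 1.66 with Ngfr at 5.62 to 6.84. Spi-7 replicate 5 lies at 2.38 with Ngfr at 6.63, the lowest of its group in both. In Spi-2 replicate 3 lies at 2.30 with Ngfr at 8.54, and replicate 2 at 3.38 with Ngfr at 6.05.

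Within the 15 arrays of the present study Ngfr was the single member called by the F-test over Control, Spi-2 and Spi-7 (adjusted p = 0.00808 by limma), where 3.01% of probe sets were called. That call was lost, at an FDR of 0.02, without any 1 of the 4 control arrays (adjusted p = 0.0251 to 0.039). Within the 16 arrays of the earlier study day 60 was higher than day 21 by 0.82 ± 0.49 (SE) on the log2 scale, which was not called (adjusted p = 0.584 by limma, where 0.00774% of probe sets were called). Between days 7 and 2 the difference in Ngfr was 0.31 with an interval of -0.90 to 1.51, and 0 of the 12913 probe sets were called between these days by limma (460 had an unadjusted p under 0.05, no member among them). In order of group means Ngfr stood lowest in Control, followed by Spi-21, Spi-2, Spi-60 and Spi-7, and of these 4 steps the one from Control to Spi-21 was called.

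Ngfr is also made by Schwann cells and by some glia after injury. Of the Schwann cell genes Sox10, Pmp22, Prx, Egr2, Foxd3 and Mpzl2 were measured and none was called, as given above, while the microglial sum was above every control in all arrays of Spi-2, Spi-7 and Spi-60. Of 9 astrocyte genes measured of 10 listed, Gfap, the filament of reactive astrocytes, rose by 2.45, 1.34 and 1.83 on the log2 scale on days 2, 21 and 60 (adjusted p = 0.000461, 0.02 and 0.00211 by limma, with 1.33 and 0.0967 on day 7). It was the single gene of that list called higher, with 1 called lower on each of days 2, 7 and 21. The summed astrocyte level was 13.03 to 13.77 in Control and 12.69 to 13.98 in the injured groups. Of 7 oligodendrocyte genes measured of 10 listed 1, 1, 4 and 2 were called lower on days 2, 7, 21 and 60 and none higher, among them Mbp, a myelin protein, which fell on days 2, 7 and 21 (-2.14, -1.66 and -1.28, adjusted p = 6.12e-05, 0.00351 and 0.00414). Their summed level was 12.3 to 13.28 in Control and 11.48 to 13.03 in the injured groups. Of 6 interneuron genes measured of 7 listed 2, 0, 3 and 3 were called lower and none higher. Over all probe sets 4.98%, 1.67%, 10.7% and 9.89% were called lower on days 2, 7, 21 and 60. The transporter genes Slc32a1 and Slc17a6 fell on day 2 (-1.35 and -1.44), day 21 (-1.87 each) and day 60 (-1.54 and -1.76), and Gad1 fell on days 21 and 60 (-2.53 and -2.05, adjusted p = 0.00226 to 0.0372 for these calls). The summed interneuron level was 9.03 to 11.24 in Control and 8.22 to 10.15 in the injured groups. The part of these cells, and of the fibroblast genes, in the Ngfr values was not tested.

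Ntrk2 encodes TrkB, which has a full-length form with a kinase domain and shorter forms without it. It was read by 2 probe sets, the second of which is marked by its suffix as reading several transcripts of the gene. Which forms each of them reads was not determined here. In the first the log2 values of Control were 8.57, 8.09, 8.30 and 8.82 (mean 8.45 ± 0.32, SD, n = 4), those of Spi-7 were 7.61, 7.38, 7.78, 8.24 and 8.96 (7.99 ± 0.62, SD, n = 5), and Spi-2 ran from 7.27 over a median of 8.17 to 8.70 (8.04 ± 0.49, SD, n = 6). Most arrays of Spi-2 and Spi-7 lay inside or below the range of Control, with 2 of 6 and 3 of 5 below its lowest array.

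On days 21 and 60 the values of this probe set surrounded those of Control. Spi-21 ran from 7.88 over a median of 8.66 to 9.14 (8.58 ± 0.48, SD, n = 8) and Spi-60 from 7.95 over 8.19 to 9.07 (8.40 ± 0.42, SD, n = 8). The log2 fold change against Control was -0.40 on day 2 (interval -0.99 to 0.19), -0.45 on day 7 (-1.06 to 0.16), 0.14 on day 21 (-0.42 to 0.69) and -0.05 on day 60 (-0.61 to 0.51), and none was called (adjusted p = 0.44 to 0.929 by limma). With intervals this wide the sign of its change was not settled at this number of arrays. With weights for the quality of each array the day 7 value was -0.70 and was called (adjusted p = 0.0432 by limma), the 1 call among 40 alternatives. With the Gapdh covariate it was -0.03 on day 7 and -0.06 on day 2 (adjusted p = 0.982 and 0.93 by limma).

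Spi-21 was divided in Ntrk2 as it was in Ngfr, the other way round. Replicates 1 to 4 had log2 values of 8.15, 8.20, 8.40 and 7.88 in the first probe set and replicates 5 to 8 had 9.02, 8.92, 8.95 and 9.14, without overlap. Replicate 5 of Spi-7, the lowest of its group in Ngfr, was the highest in Ntrk2 in both probe sets (8.96 and 6.41). Spi-2 replicate 2 did not follow this: it was the lowest of its group in Ngfr (6.05) and in the first probe set of Ntrk2 (7.27).

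The second probe set of Ntrk2 was almost flat. Its log2 values lay between 5.64 and 6.41 over the 31 arrays, and the SD over all arrays was at percentile 3.45 of all probe sets. Its change against Control was between -0.12 on day 2 and 0.10 on day 21, was not called at any time (adjusted p = 0.468 to 0.864 by limma), and its 95% intervals spanned -0.32 to 0.30 over the 4 times. The F-test over the 5 groups gave adjusted p = 0.209 for the first and 0.239 for the second probe set. On day 7 both probe sets differed in the sign of the change (-0.45 and 0.05).

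Ntrk3 encodes TrkC, which in the spinal cord is known from motor neurons and from the sensory neurons of muscle spindles that contact them. Its probe set has the same suffix as the second of Ntrk2, and which transcripts it reads was not determined here. Its log2 values were 6.48, 6.06, 6.30 and 6.71 in Control (6.39 ± 0.28, SD, n = 4), ran from 6.56 over 6.78 to 7.03 in Spi-2 (6.78 ± 0.15, SD, n = 6) and were 6.51, 6.73, 6.62, 6.56 and 6.61 in Spi-7 (6.61 ± 0.083, SD, n = 5). Of the 6 arrays of Spi-2, 5 lay above the highest control. The range was 6.20 to 6.82 for Spi-21 (median 6.57) and 6.11 to 6.67 for Spi-60 (median 6.45), both overlapping with Control.

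The change of Ntrk3 against Control was 0.40 ± 0.13 (SE) on the log2 scale on day 2, 1.32-fold (interval 0.13 to 0.66), and just missed the threshold (adjusted p = 0.0527 by limma). It was called under 10 of 40 alternatives, among them array weights (0.49, adjusted p = 0.00387) and leaving out the dimmest probe sets (those under the quantile of 0.25 of mean level, adjusted p = 0.0435). Under the others it was not called, as with the Gapdh covariate (0.38, adjusted p = 0.118 by limma), and the highest adjusted p was 0.231. On days 7, 21 and 60 the log2 changes were 0.22, 0.17 and 0.01, not called, with adjusted p = 0.462, 0.36 and 0.962 by limma. From day 2 to day 60 Ntrk3 fell by 0.39 on the log2 scale (SE 0.11, adjusted p = 0.0222 by limma), where 11% of all probe sets were called. That call was lost without Spi-2 replicate 5 (adjusted p = 0.0673), without Spi-60 replicate 2 (0.051) and after a further quantile normalization (0.0845). It sets arrays of the earlier study against arrays of the present one. The F-test over the 5 groups gave adjusted p = 0.0466 for Ntrk3, above the FDR of 0.02.

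Ntf3, the ligand of TrkC, encodes NT-3, which in the adult is made by muscle among other tissues. Its probe set was dim, with a mean log2 value of 4.89 over all arrays, at percentile 7.22 of all probe sets. The log2 values in Control were 4.91, 4.81, 4.91 and 4.52 (4.79 ± 0.19, SD, n = 4), those of Spi-7 4.52, 4.67, 4.68, 4.54 and 4.53 (4.59 ± 0.081, SD, n = 5), and Spi-2 ran from 4.26 over 4.78 to 4.89 (4.70 ± 0.23, SD, n = 6). The later groups were higher: Spi-21 ran from 4.68 over 5.04 to 5.46 (5.07 ± 0.24, SD, n = 8) and Spi-60 from 4.83 over 5.05 to 5.35 (5.08 ± 0.17, SD, n = 8). Above the highest control lay 6 of 8 arrays of Spi-21 and 7 of 8 of Spi-60, and all arrays of Spi-60 lay above all of Spi-7.

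Ntf3 was not called against Control at any time. The log2 fold change was -0.09 on day 2 (adjusted p = 0.768 by limma), -0.20 on day 7 (0.51), 0.28 on day 21 (0.114, interval 0.03 to 0.53) and 0.29 on day 60 (0.102, interval 0.04 to 0.55). Between the late and the early times it was called in all 4 pairs, with log2 differences of 0.37 ± 0.11 (SE) for day 21 against day 2 (adjusted p = 0.0249 by limma), 0.38 ± 0.11 for day 60 against day 2 (0.0243), 0.48 ± 0.12 for day 21 against day 7 (0.0201) and 0.49 ± 0.12 for day 60 against day 7 (0.0132). Of all probe sets 14.6%, 11%, 4.29% and 4.27% were called in these pairs. Each pair sets arrays of the earlier study against arrays of the present one, so that study and time cannot be told apart. Within the studies Ntf3 was not called, neither over days 0, 2 and 7 (adjusted p = 0.619) nor between days 60 and 21 (0.01 ± 0.11, SE, adjusted p = 0.981 by limma).

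**Figure D3:**
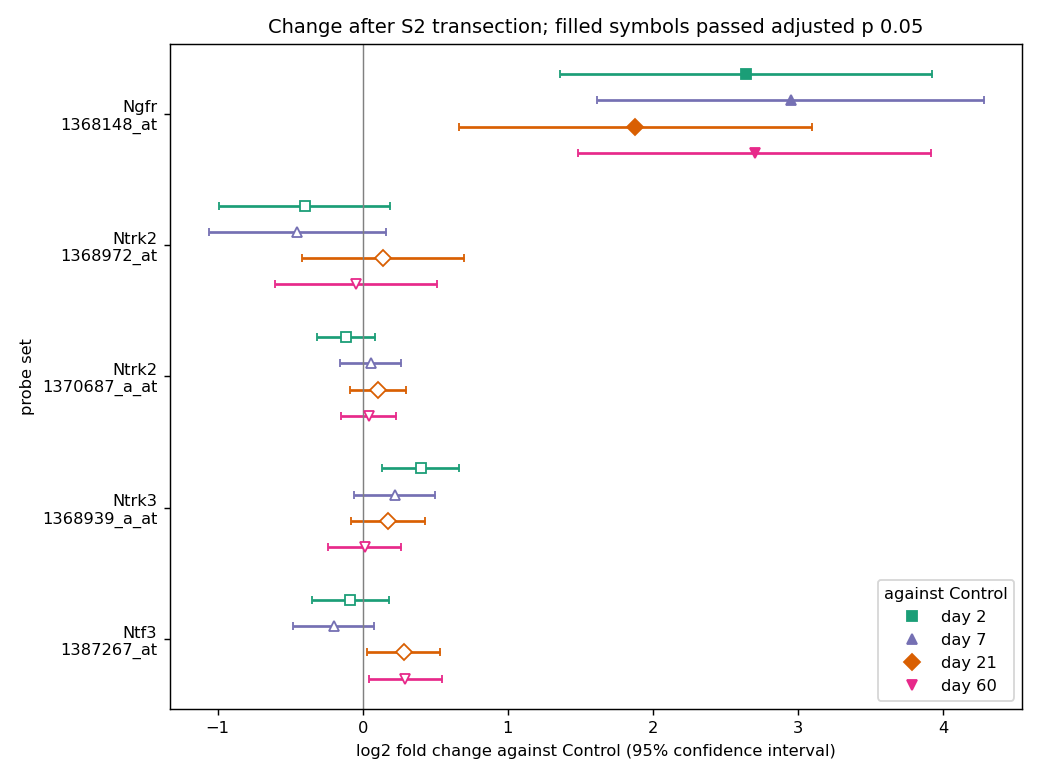
Log2 fold change against Control (x axis) of each member probe set (y axis) on days 2, 7, 21 and 60, with 95% confidence intervals from limma and filled symbols where the adjusted p was under 0.05. The changes of Ngfr are 1.88 to 2.95, and their intervals, from 0.66 to 4.28 over the 4 times, lie above 0. All other changes lie between -0.45 and 0.40.

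Among the 20 pairs of neighbours in the orders of group means of the 5 probe sets, only that of Ngfr in Control and Spi-21 was called. Between days 60 and 21, where 0.0697% of probe sets were called, no member was by limma, and none had an unadjusted p under 0.05. Ntrk2 stood lowest in Spi-7 and highest in Spi-21 in the first probe set, and lowest in Spi-2 and highest in Spi-21 in the second. Ntrk3 stood lowest in Control and highest in Spi-2. Ntf3 stood lowest in Spi-7, followed by Spi-2, Control, Spi-21 and Spi-60.

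The pattern most like that of Ngfr over the 31 arrays was that of Vgf, a secreted neuropeptide precursor that neurotrophins are known to induce (Pearson's r = 0.886). It was followed by Nkain1 (0.866), Sf3b4, a splicing factor subunit (0.851), Cyp4b1 (0.846) and Wdr1, which promotes the disassembly of actin filaments (0.826). The arrays are shared by both genes of each pair and fall into groups, so these values only describe how alike the profiles were. Vgf was lowest in Control, at 9.74, 10.20, 10.43 and 10.31 on the log2 scale, and ran from 11.34 to 12.11 in Spi-60. In Spi-2 replicate 2, where Ngfr was lowest, Vgf was 9.74, while the other arrays of Spi-2 had 11.21 to 11.84. In Spi-21 Vgf was 11.82 to 12.09 in replicates 1 to 4 and 10.36 to 11.13 in replicates 5 to 8. Within Spi-60 the lowest array in Ngfr (replicate 4, 7.18) and the highest (replicate 1, 9.23) both had 11.68 for Vgf.

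**Figure D4:**
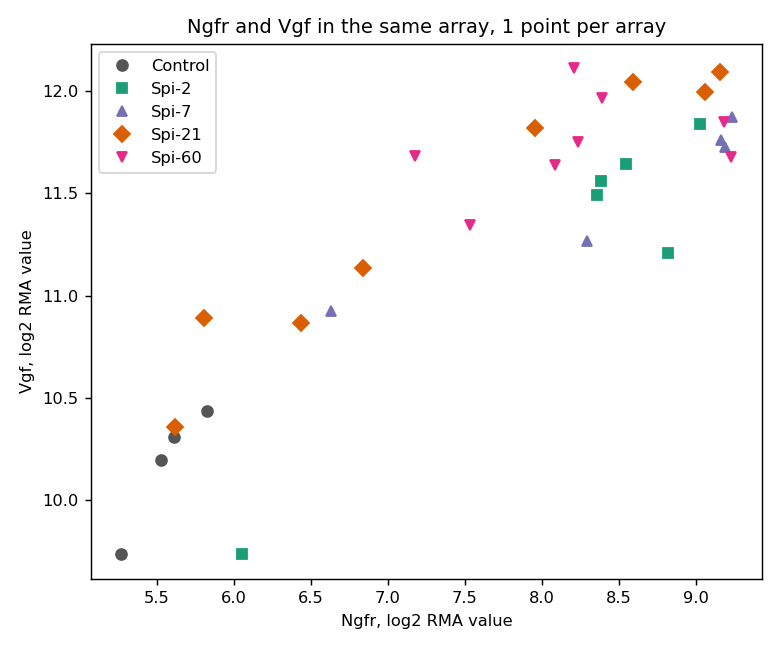
Log2 value of Vgf (y axis) against that of Ngfr (x axis) in the same array, 1 point for each of the 31 arrays, with a symbol for each group. Control and the lowest array of Spi-2 (Ngfr 6.05, Vgf 9.74) lie at the lower left and most injured arrays at the upper right.

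For the first probe set of Ntrk2 the most alike profiles were those of Grik4, a kainate receptor subunit (r = 0.847), Akap8l (0.8), Bola1 (0.788), Abhd17a (0.781) and Sympk (0.757). For Ntrk3 they were those of Cep164, a centriole protein (0.679), Rfwd3 (0.667), Kcnn3, a calcium-activated potassium channel (0.662), Prl7a3 (0.661) and Cnot9 (0.653). For Ntf3 they were those of Ino80e (0.786), Tmem255b (0.771), Lig1, a DNA ligase (0.759), Smad7, an inhibitor of TGF-beta signalling (0.749) and Trabd (0.745).

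Around the members, 119 genes of the pathway were measured of 181 listed in 5 lists, with 1 probe set per gene. Of them 9 were called higher and 6 lower than Control on day 2 (12.6% of the genes in either direction), 4 and 2 on day 7 (5.04%), 11 and 7 on day 21 (15.1%) and 11 and 6 on day 60 (14.3%), beside 8.87%, 2.59%, 16.6% and 17.1% of all probe sets. Their median log2 change lay between 0.02 and 0.05 at the 4 times, beside medians from -0.0030 to 0.013 over all probe sets.

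Among the other ligands and receptors 9 of 16 listed genes were measured. The share called on days 2, 7, 21 and 60 was 11.1%, 11.1%, 0% and 0%, beside 8.87%, 2.59%, 16.6% and 17.1% of all probe sets. The 1 gene called was Sorl1, a sorting receptor of the sortilin family known to carry TrkB and the amyloid precursor protein within neurons. It fell by 1.01 on the log2 scale on day 2 (SE 0.23, adjusted p = 0.00551 by limma) and by 0.94 on day 7 (SE 0.24, adjusted p = 0.0279), with values of -0.12 and -0.41 on days 21 and 60 that were not called. Its 2 other probe sets were called lower on days 2 and 7 as well (-0.93 and -0.88, and -0.87 and -0.79), and 1 of them on day 60 (-0.44, adjusted p = 0.0388). Ntf4, the other ligand of TrkB, had log2 changes of 0.19 to 0.31 and was not called at any time (adjusted p = 0.0887 to 0.249). Sort1, the sortilin that joins Ngfr in binding precursors of neurotrophins, had changes of 0.07 to 0.36 (adjusted p = 0.12 to 0.758). The partners of Ngfr in binding myelin inhibitors, Lingo1 and Rtn4r, were not called either, with changes from -0.36 to 0.18. Nor was Sorcs3, another member of the sortilin family (-0.24 to 0.02).

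Of the genes that cut the precursors or the receptors 15 of 20 were measured, and 3 of them were called. The share called on days 2, 7, 21 and 60 was 13.3%, 13.3%, 20% and 20%, beside 8.87%, 2.59%, 16.6% and 17.1% of all probe sets. Mmp3, a metalloproteinase able to cleave neurotrophin precursors, rose by 1.92 ± 0.41 (SE), 2.38 ± 0.43, 1.93 ± 0.39 and 1.77 ± 0.39 on the log2 scale on days 2, 7, 21 and 60 (adjusted p = 0.00168 to 0.00336 by limma). Serpini1, which encodes neuroserpin, an inhibitor of tissue plasminogen activator, fell by 1.10, 0.75, 0.78 and 1.01 (SE 0.16 to 0.17, adjusted p = 0.000104 to 0.0124). Plat, the plasminogen activator itself, was not called (-0.50 to 0.35). Psen2, a subunit of the gamma-secretase that cuts Ngfr within the membrane, rose by 0.41 on day 21 and 0.48 on day 60 (SE 0.11 each, adjusted p = 0.00941 and 0.00253 by limma).

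Of the genes that act downstream of Trk receptors 41 of 64 were measured, with 1 called higher and 1 lower on day 2, none on day 7 (7 had an unadjusted p under 0.05 in limma), 4 and 2 on day 21 and 3 and 2 on day 60. That was 4.88%, 0%, 14.6% and 12.2% of the 41 genes, beside 8.87%, 2.59%, 16.6% and 17.1% of all probe sets. Cdk5, a neuronal kinase, fell by 0.77 on day 2 (SE 0.19, adjusted p = 0.011 by limma). Pik3r2, a regulatory subunit of phosphatidylinositol 3-kinase, rose by 0.35 on day 21 and 0.46 on day 60 (SE 0.11 each, adjusted p = 0.0285 and 0.00437), while its second probe set was not called (-0.03 and 0.07). Nras and Hap1 were called in the F-test (adjusted p = 0.00331 and 0.00382) but not against Control at any time, with changes of -0.04 to 0.44 and -0.20 to 0.23. The Nras probe set was highest on days 2 and 7 (0.44 and 0.43). A second Nras probe set had another course, with 0.06, 0.14, 0.23 and 0.28 on days 2, 7, 21 and 60, and was not called (adjusted p = 0.159 to 0.852 by limma).

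Downstream of Ngfr 33 of 52 genes were measured, with 5 higher and 3 lower on day 2, 2 and 0 on day 7, 4 and 4 on day 21 and 4 and 3 on day 60. In either direction this was 24.2%, 6.06%, 24.2% and 21.2% of the 33 genes, beside 8.87%, 2.59%, 16.6% and 17.1% of all probe sets. The part of microglia and other cells in these calls was not tested. Bad, which promotes apoptosis, rose by 0.60, 0.57, 0.59 and 0.61 on days 2, 7, 21 and 60 (SE 0.089 to 0.098, adjusted p = 5.71e-05 to 0.00155 by limma). Nfkbib, an inhibitor of NF-kappaB, rose by 0.61 on day 21 and 0.68 on day 60 (SE 0.14 each, adjusted p = 0.00469 and 0.00143). Bex1, an adaptor that binds Ngfr, fell by 0.85 and 0.91 at these days (SE 0.22 each, adjusted p = 0.00818 and 0.00436). Bex3, which also binds Ngfr, fell by 0.56 on day 2 in 1 probe set (SE 0.13, adjusted p = 0.00703), while its other probe set gave 0.37 with the opposite sign (adjusted p = 0.12).

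Of 30 genes known to respond to BDNF 21 were measured, and 2 were called against Control. On days 2, 7, 21 and 60 the share called was 9.52%, 4.76%, 4.76% and 9.52%, beside 8.87%, 2.59%, 16.6% and 17.1% of all probe sets. Vgf rose by 1.08 ± 0.32 (SE), 1.34 ± 0.33, 1.23 ± 0.30 and 1.58 ± 0.30 on the log2 scale on days 2, 7, 21 and 60 (adjusted p = 0.0303, 0.0227, 0.00666 and 0.00074 by limma). The calls on days 2, 7 and 60 were lost with the Gapdh covariate (adjusted p = 0.152, 0.159 and 0.116), as for Ngfr. Dusp5, a phosphatase of the ERK kinases, rose by 0.36 on day 2 and 0.39 on day 60 (SE 0.11 each, adjusted p = 0.0413 and 0.011). Gadd45b and Crh were not called (changes of -0.51 to 0.0026 and -0.24 to 0.42). The median log2 change of the 21 genes was -0.12, -0.08, -0.11 and -0.06 on days 2, 7, 21 and 60.

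Some of these calls did not hold when 1 array was left out, for several of them whichever of a number of arrays it was. The direction of the change was kept in each case. Leaving out 1 array ended those of Sorl1 on day 7 (Control replicate 1, 3 or 4 or Spi-7 replicate 1, 2, 3 or 4, adjusted p = 0.0541 to 0.112 by limma), Vgf on day 2 (Control replicate 1, 2 or 4 or Spi-2 replicate 1, 3, 4 or 6, 0.0505 to 0.114) and day 7 (Control replicate 1 or 2 or Spi-7 replicate 1, 2 or 3, 0.0564 to 0.101), Dusp5 on day 2 (Control replicate 1, 3 or 4 or Spi-2 replicate 3, 4 or 6, 0.0541 to 0.272) and day 60 (Control replicate 3, 0.113), Pik3r2 on day 21 (Control replicate 1, 3 or 4 or Spi-21 replicate 2, 0.0535 to 0.0815), Serpini1 on day 7 (Control replicate 4, 0.0569) and Bex1 on day 21 (Control replicate 3, 0.0532). Without Spi-21 replicates 1 to 3 together the day 21 calls of Vgf (log2 change 0.88, adjusted p = 0.0859), Psen2 (0.35, 0.0732) and Pik3r2 (0.29, 0.145) were lost. With the Gapdh covariate the calls of Sorl1 and Serpini1 on day 7 (adjusted p = 0.148 and 0.0941), Mmp3, Psen2, Pik3r2, Bex1 and Nfkbib on day 60 (0.0657 to 0.147) and Dusp5 on days 2 and 60 (0.142 and 0.263) were lost as well. Those of Bad on all 4 days were kept with the covariate (0.000223 to 0.0138) and without any 1 array.

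**Figure D5:**
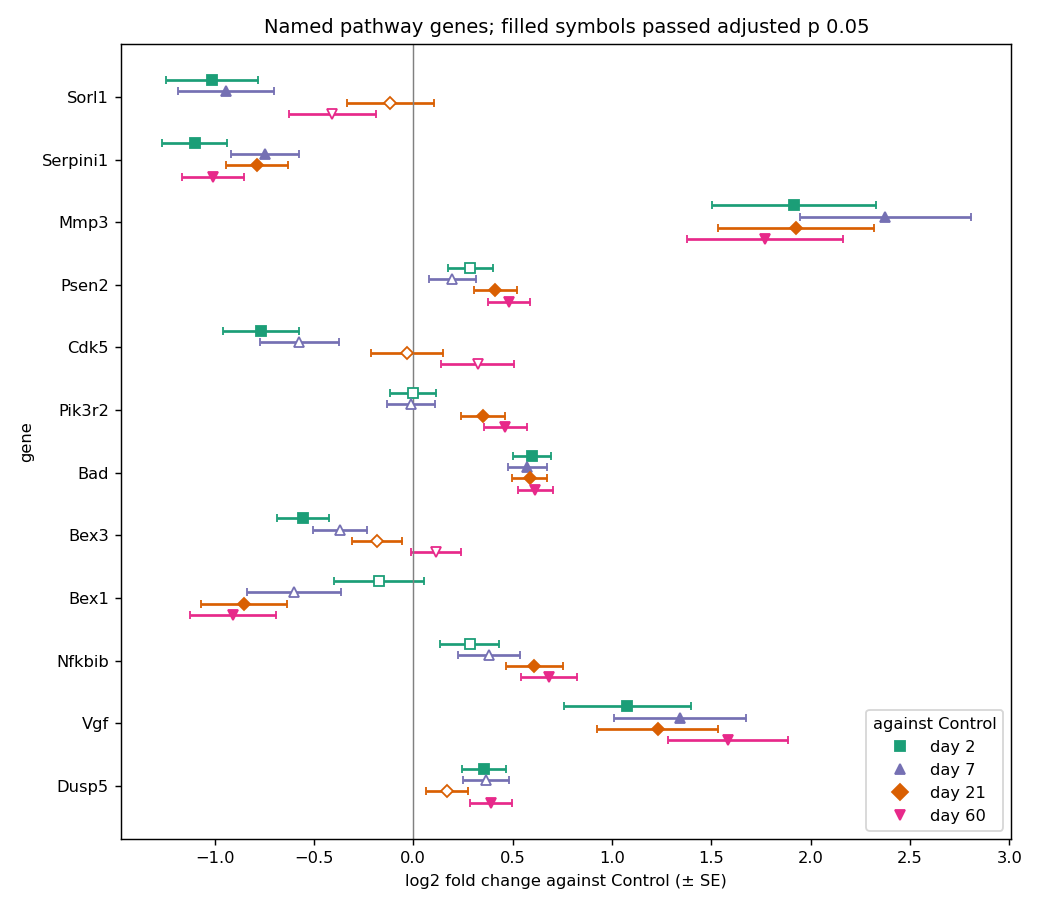
Log2 fold change against Control with its SE (x axis) of the 12 named pathway genes (y axis) that were called on at least 1 day, with filled symbols where the adjusted p in limma was under 0.05. Mmp3 (1.77 to 2.38) and Vgf (1.08 to 1.58) lie highest and Serpini1 (-1.10 to -0.75) and Sorl1 (-1.01 to -0.12) lowest.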

How the data were processed

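RNA of laser microdissected motor neurons was amplified and hybridised to 31 Affymetrix rat arrays, 1 rat each. The deposited log2 values were made by the authors, who kept the probe sets that Ensembl lists for the chip, corrected for background, normalized the arrays and computed RMA summaries (no version is given in the sources used here). Amplification and normalization can move a gene on all arrays of a group at once. The 6 Affymetrix control sets entered no test. Groups were taken from the labels. Means for 5 groups were fitted to the 12913 probe sets with limma 3.58.1 in R 4.3.3, with no covariate. The ± is the SE after a fold change and the SD after a mean. The number of arrays limits the precision.

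The members and the gene lists were chosen with earlier results of these data known. Named pathway genes are Ntf4, Sort1 and, for each list, the 4 genes that ranked first by p over the 5 groups. A gene with several probe sets is read by the one with the highest mean. The 5 most alike profiles were ranked by Pearson's r. The scripts were tested on simulated data. Alternatives changed the normalization, weights, covariates, filter, groups and arrays used.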

Additional observations from a re-analysis of the deposited data

Results flagged for a closer look

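In a test for outlying arrays over 25 groups of values (5 probe sets in 5 groups), 2 arrays stood apart, where chance gives about 1 in 20 groups. That count is close to what this rate gives over 25 groups. Ngfr in Spi-2 replicate 2 was 6.05 on the log2 scale against 8.36 to 9.03 in the other 5 arrays, and the gap was 0.775 of the range of the group. The second probe set of Ntrk2 in Spi-7 replicate 5 was 6.41 against 5.89 to 6.00 in the other 4 arrays, a gap of 0.784 of the range.

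The changes against Control differed between times for Ntrk3 and Ntf3 in direct tests by limma. For Ntrk3 the change on day 60 minus that on day 2 was -0.385. For Ntf3 the difference was 0.367 between days 21 and 2, 0.378 between days 60 and 2, 0.483 between days 21 and 7 and 0.494 between days 60 and 7. Each of these sets 1 study against the other.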

How the results depend on the processing

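Ngfr kept its direction against Control at all 4 times under every alternative run. The counts of called member probe sets moved as follows. With array weights they were 4 (2 without weights) over the 5 groups, 2 (1) on day 2 and 2 (1) on day 7. With the Gapdh covariate they were 1 over the 5 groups, where Ngfr had adjusted p = 0.0536, and 0 on days 2, 7 and 60. Without Spi-21 replicates 1 to 3 they were 2 on day 2, 0 on day 21 and 0 among neighbours in the order of means, and in fits of the 2 groups alone 0 on day 21. Leaving out 1 array at a time gave 1 to 2 over the 5 groups (Ngfr had adjusted p = 0.022 without Control replicate 1), 1 to 2 on day 2, 1 on day 7, 0 to 2 on day 21, 1 on day 60, 0 to 2 among neighbours, 0 to 1 over days 0, 2 and 7 and 0 between days 7 and 2 and days 60 and 21. The cause of these moves was not tested.

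Ntf3 lay below the filter on dim probe sets, so no count was given there. Its call between days 21 and 2 was lost without Spi-21 replicate 1 (adjusted p = 0.0529), without Spi-2 replicate 5 (0.0884), in the fit of the 2 groups alone (0.0919) and without Spi-21 replicates 1 to 3 (0.168), and that between days 60 and 2 was lost with the Gapdh covariate (0.106) and without Spi-2 replicate 5 (0.0872) or Spi-60 replicate 2 (0.052) or 5 (0.0536). Between days 21 and 7 it was lost without Spi-7 replicate 1 (0.073), 2 (0.0536) or 4 (0.052), in the fit of the 2 groups alone (0.0846) and without Spi-21 replicates 1 to 3 (0.138), and between days 60 and 7 without Spi-7 replicate 1 (0.0501). Against Control on day 21 it was called without Spi-21 replicate 6 (0.0494).

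Only differences that were not called changed sign. With the Gapdh covariate these were the first probe set of Ntrk2 on day 60 against control (0.57), day 7 against day 2 (0.029) and day 60 against day 21 (0.32), Ntrk3 on day 60 against control (-0.024), and Ngfr (-0.37) and Ntf3 (-0.11) on day 60 against day 21. A further quantile normalization gave 0.099 for the first probe set of Ntrk2 on day 60, centring on the median gave -0.00015 for Ntf3 on day 60 against day 21, and array weights gave -0.010 for the second of Ntrk2 on day 7. Leaving out 1 array at a time, the values against control ranged over both signs for Ntf3 on day 2 (-0.18 to 0.0029), Ntrk3 on day 60 (-0.096 to 0.12), the first probe set of Ntrk2 on day 60 (-0.17 to 0.076) and the second on day 7 (-0.042 to 0.096) and day 60 (-0.012 to 0.083). So did day 7 against day 2 for Ngfr (-0.12 to 0.77) and the first of Ntrk2 (-0.29 to 0.10), and day 60 against day 21 for Ntf3 (-0.044 to 0.067).

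The replicate number as a block left all counts as they were (2 over the 5 groups, 1 on each of days 2, 7, 21 and 60) and turned the first probe set of Ntrk2 on day 21 (-0.067) and the second on day 60 (-0.0053). The numbers do not pair animals: deviations from the group means correlated with a median of -0.0414 over 51 pairs of arrays with the same number and of 0.00551 over 327 pairs with different numbers.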
